A study of Mus musculus with 2 samples.

Results

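The SoxC, SoxD, SoxE and SoxF transcription factors were examined in teratomas derived from E14 and E14-Sox2TA/WT cells. The 10 genes were Sox4 and Sox11 (SoxC), Sox5 and Sox6 (SoxD), Sox8, Sox9 and Sox10 (SoxE), and Sox7, Sox17 and Sox18 (SoxF), found by symbol among the 45777 genes of the expression table. E14 is a mouse embryonic stem cell (ESC) line, and E14-Sox2TA/WT is a line grown from single edited E14 cells, in which CRISPR/Cas9 turned threonine 258 of Sox2 into alanine (T258A) on 1 allele while the other allele remained wild type. Cells of each line were inoculated under the skin of 3 BALB/c-nu mice, whose immune system lacks mature T cells but keeps macrophages, and teratomas were harvested at day 14. RNA-seq gave 1 library per group, so no difference below has a replicate check within these data, and no test between the groups was possible. The paper also reports histology of teratomas, with less ectoderm, more cartilage and more calcification in E14-Sox2TA/WT. It further reports qPCR of teratomas, with mesendodermal markers higher and ectodermal markers lower in E14-Sox2TA/WT. Of the genes named below, its qPCR panels held Sox17, Afp and Foxa2 for the former and Tubb3 for the latter, and their values were not compared here. Whether a library held 1 tumor or several was not stated.

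Sox proteins are transcription factors related to Sry that bind DNA through a high-mobility-group (HMG) box, and the letters C to F denote subgroups with similar boxes. SoxC factors act in progenitors that become neurons. SoxD factors lack a domain that activates transcription and work beside Sox9 in cartilage, SoxE factors act in cartilage, glia and neural crest, and SoxF factors act in endothelium and endoderm. A teratoma mixes derivatives of all germ layers, so the subgroups can mark different tissues within it.

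The coding sequence at the start of the HMG box is given below for 9 of the genes, because this box is what assigns them to subgroups and the subgroups are the units compared here. Sequences were read from GENCODE M21 transcripts of GRCm38 (mm10), 5′ to 3′ on the coding strand, and capitals mark bases shared by all 9. The stretches lie in coding exons, each within 1 exon.

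Sox4: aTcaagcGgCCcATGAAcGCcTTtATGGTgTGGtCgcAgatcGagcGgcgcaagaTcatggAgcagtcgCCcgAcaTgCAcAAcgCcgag
Sox11: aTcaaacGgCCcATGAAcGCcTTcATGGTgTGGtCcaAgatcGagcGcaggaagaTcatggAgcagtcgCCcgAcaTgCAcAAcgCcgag
Sox5: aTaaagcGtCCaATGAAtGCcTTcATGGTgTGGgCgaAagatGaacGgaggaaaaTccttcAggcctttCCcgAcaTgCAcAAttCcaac
Sox6: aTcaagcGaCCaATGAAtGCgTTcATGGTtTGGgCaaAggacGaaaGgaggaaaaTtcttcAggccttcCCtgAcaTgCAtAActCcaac
Sox8: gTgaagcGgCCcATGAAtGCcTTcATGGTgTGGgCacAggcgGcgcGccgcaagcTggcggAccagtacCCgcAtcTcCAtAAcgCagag
Sox9: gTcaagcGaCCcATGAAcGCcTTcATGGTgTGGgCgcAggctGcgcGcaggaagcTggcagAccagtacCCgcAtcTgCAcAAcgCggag
Sox10: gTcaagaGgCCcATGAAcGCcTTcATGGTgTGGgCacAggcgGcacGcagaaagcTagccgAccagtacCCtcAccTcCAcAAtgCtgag
Sox17: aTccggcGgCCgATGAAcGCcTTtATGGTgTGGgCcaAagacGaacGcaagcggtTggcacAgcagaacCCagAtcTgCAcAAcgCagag
Sox18: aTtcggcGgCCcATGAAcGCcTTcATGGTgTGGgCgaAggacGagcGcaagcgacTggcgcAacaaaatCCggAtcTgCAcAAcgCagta

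The stretches of the SoxC genes lie on the minus strand, Sox4 at chr13:28952758-28952847 and Sox11 at chr12:27342175-27342264. Those of the SoxD genes also lie on the minus strand, Sox5 at chr6:143841190-143841279 and Sox6 at chr7:115489679-115489768. Among SoxE genes, Sox8 lies at chr17:25570139-25570228 and Sox10 at chr15:79163318-79163407, both on the minus strand, and Sox9 on the plus strand at chr11:112782897-112782986. Among SoxF genes, Sox17 at chr1:4493116-4493205 and Sox18 at chr2:181671198-181671287 lie on the minus strand. Of these 90 bases, 36 were the same in all 9 genes. Over the whole box of 69 residues, translated from the same transcripts, the 6 pairs of genes within a subgroup shared 89.9% to 98.6% of residues, and the 30 pairs across subgroups shared 46.4% to 71.0%. Sox8 and Sox9 were the closest pair, with 68 identical residues. Sox17 and Sox18 were the least alike within a subgroup, with 62. Sox4 and Sox11 are each encoded by 1 exon, whereas the transcripts of Sox5 and Sox6 read here have 15 and 16 exons.

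The libraries held 50529171 (E14) and 49030281 (E14-Sox2TA/WT) reads on genes. Levels are given as TPM, which corrects reads for transcript length and sums to about the same total in each library. Intervals are 95% intervals that cover counting error and not differences between tumors. The TPM of Sox2 itself was 246 in E14 and 130 in E14-Sox2TA/WT teratoma, and gene counts do not show the edited base. The label of teratoma was checked with marker lists, and all 14 immature neuron genes, 13 of 16 cartilage matrix genes and all 16 endoderm genes reached a TPM of 1 in at least 1 library. Host and tumor are both mouse, so their reads cannot be told apart. The libraries also differed outside the Sox genes. Reads on 4 Y-linked genes numbered 5453 and 0, although E14 is a male line, and all 10 pluripotency genes were past 2-fold higher in the E14-Sox2TA/WT library, with summed TPM of 84.7 and 2031. Nanog, for example, was at a TPM of 8.37 and 116. The part of these differences in the values below was not tested.

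Compared with E14 teratoma, transcripts of the 7 SoxC, SoxD and SoxE genes were scarcer in E14-Sox2TA/WT teratoma and those of the 3 SoxF genes more abundant. The interval of Sox18 included no difference with TPM, which depended on the scaling. By the rule of the study's methods, a fold change above 2 in genes whose TPM reached 10 in either library, 6 of the 8 genes that met the TPM limit were lower (Sox11, Sox5, Sox6, Sox8, Sox9 and Sox10) and 0 were higher. Over all 11578 genes that met this limit, 18.7% were lower and 10.8% higher. No p-value goes with these counts. Sox5, Sox6, Sox8 and Sox10 met the limit in the E14 library only, and Sox18 in the other only. Because a gene passes on its higher value, the limit favors genes that differ, here and in the gene lists. Sox7 and Sox17 differed by more than 2-fold but stayed under the TPM limit in both libraries. The same 6 genes were lower with FPKM and with read counts under each of 3 scalings. In bulk tissue, fewer cells that express a gene and less RNA per cell cannot be told apart.

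**Figure D1:**
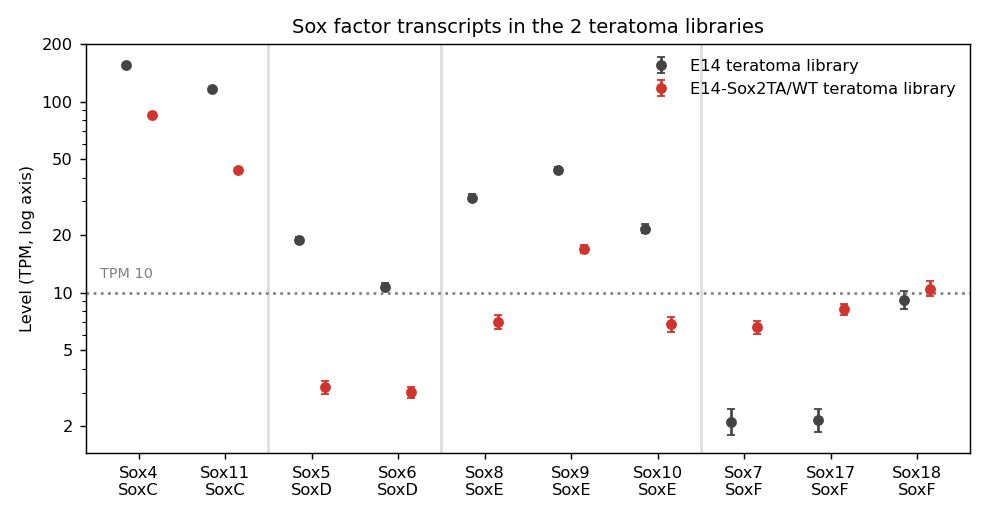
Level of each Sox gene in TPM (log axis) in the E14 library (dark) and the E14-Sox2TA/WT library (red), 1 library each, with 95% Poisson intervals of the reads. The 7 genes of SoxC, SoxD and SoxE are lower in the red library, while Sox7 and Sox17 are higher and the intervals of Sox18 overlap.

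SoxC genes were the most abundant of the 10 in both libraries. Sox4, which promotes survival and differentiation of neuronal precursors and is also expressed in many other progenitors, had 17903 reads in E14 and 10931 in E14-Sox2TA/WT teratoma, or a TPM of 156 and 85.1. It was 1.83-fold lower (1.79 to 1.87) and did not reach 2-fold. Sox11, which turns on neuronal genes such as Tubb3 in newborn neurons, had 23663 and 9945 reads, or a TPM of 116 and 43.8. The difference was 2.66-fold (2.60 to 2.72), larger than that of Sox4. The ratio of Sox11 to Sox4, which does not depend on how the libraries are scaled, was 0.748 and 0.515, that is, 0.688 times as high (0.666 to 0.712). Sox12, the remaining SoxC gene, was 2.70-fold lower (2.58 to 2.83), from a TPM of 61.6 to 22.8. The ratio of Sox11 to Sox12 was 1.89 and 1.92, and the counting interval of its change, 0.967 to 1.07, included no change. Sox4 thus stood apart from the other SoxC genes in the size of its difference. In a GENCODE record, the noncoding gene Gm26735 overlaps Sox4 on the other strand, and 54.1% of the 50-nt stretches of the Sox4 transcript occur there. Whether reads were counted by strand is not stated, so the value of Sox4 is less certain than that of Sox11, for which 0 such stretches were shared.

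The 14 immature neuron genes, several of which SoxC factors activate, all had lower TPM in E14-Sox2TA/WT teratoma, and 12 of the 13 that reached a TPM of 10 were past 2-fold. Their median log2 ratio, taken with 1 added to each TPM, was -2.17, against -0.06 for all 18558 genes that reached a TPM of 1, of which 52.5% were lower. Summed TPM was 3947 and 684, a larger difference than that of either SoxC gene. Tubb3, neuronal beta-tubulin, was 10.1-fold lower (9.88 to 10.4). Dcx, which stabilizes microtubules in migrating neurons, was 7.07-fold lower, and the growth cone genes Gap43 and Stmn2 were 4.47-fold and 3.72-fold lower. No gene of the list was at 0 reads in either library. The part of neuron number in the SoxC values was not tested.

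Sox5 and Sox6, the SoxD genes examined, had a median log2 ratio of -1.90. Sox5, which shapes cartilage and neuron subtypes, had 2946 reads in E14 and 583 in E14-Sox2TA/WT teratoma, or a TPM of 18.9 and 3.20. It was 5.91-fold lower (5.40 to 6.47), the largest difference among the 10 genes. Sox6, its partner in cartilage that also acts in muscle and red blood cells, had 2656 and 1017 reads, or a TPM of 10.8 and 3.01. Its TPM was 3.58-fold lower (3.33 to 3.85), whereas its reads, scaled by library total, were 2.53-fold lower. Both genes have many transcripts, and the reads that made up 1 unit of FPKM differed between the libraries by 1.23 times for Sox6 and 1.05 times for Sox5, relative to the median of 14292 genes with at least 100 reads in both libraries. The value for Sox6 was higher than that of 98.7% of these genes. TPM and reads therefore give different sizes for Sox6, and which transcripts were counted was not examined. In Sox5 and Sox6 alike the difference exceeded 2-fold by either measure. Sox13, the third SoxD gene, which is expressed in T cells and arterial walls among other tissues, had a TPM of 24.0 and 22.6, a ratio of 0.941 (0.887 to 0.999) that became 1.08 with FPKM. Its direction thus depended on the scaling. Relative to Sox13 the TPM levels of Sox5 and Sox6 were 5.56-fold and 3.37-fold lower. These values are free of scaling between libraries but rest on TPM, and reads give a smaller difference for Sox6. Sox13 was 1.27 times Sox5 in the E14 library and 7.07 times Sox5 in the other. With Sox13 counted in, the median of SoxD was -1.55, close to the -1.53 of SoxE, and its summed TPM was 1.86-fold lower, against 4.78-fold for Sox5 and Sox6 alone.

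All 3 SoxE genes were past 2-fold lower. Sox9, the master regulator of cartilage that also acts in glial progenitors, hair follicles and testis, had 4398 reads in E14 and 1885 in E14-Sox2TA/WT teratoma, or a TPM of 44.1 and 16.9. It was 2.61-fold lower (2.47 to 2.75). Sox10, which neural crest, Schwann cells, melanocytes and oligodendrocytes require, had 1411 and 497 reads, or a TPM of 21.6 and 6.81, and was 3.17-fold lower (2.86 to 3.52). Sox8, which acts beside Sox9 and Sox10 in glia and in Sertoli cells, had 2265 and 564 reads, or a TPM of 31.4 and 6.99. Its difference, 4.49-fold (4.09 to 4.93), was the largest in the subgroup. In E14 teratoma the order was Sox9, Sox8 and Sox10, and in E14-Sox2TA/WT teratoma Sox8 and Sox10 no longer differed beyond their counting intervals, 6.43 to 7.59 and 6.23 to 7.44. The ratio of Sox9 to Sox8 went from 1.40 to 2.42 and that of Sox9 to Sox10 from 2.04 to 2.48. Sox9 was thus the SoxE gene with the smallest difference. The start of Sox8 overlaps an antisense transcript, 2810468N07Rik, in GENCODE, which shares 9.49% of the 50-nt stretches of Sox8, and no other SoxE gene shared any with another gene.

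Lists of genes from tissues that use SoxE and SoxD factors did not share 1 direction. Among oligodendrocyte genes, 8 of the 10 that reached a TPM of 10 were past 2-fold lower and 0 higher. To some degree, 11 of the 13 in the list were lower, with a median log2 ratio of -1.54. Myrf and Pdgfra were higher instead, both short of 2-fold. Myrf was at a TPM of 7.03 in E14 and 10.6 in E14-Sox2TA/WT teratoma, and Pdgfra at 21.6 and 26.1. Gpr17, a receptor of immature oligodendrocytes, was 7.15-fold lower, Nkx2-2 and Olig1, factors of the lineage, were 5.94-fold and 5.01-fold lower, and the myelin genes Mbp and Cnp were 4.08-fold and 2.95-fold lower. All 12 radial glia and astrocyte genes were lower as well, 8 of 11 past 2-fold, with a median of -1.65. Fabp7, a lipid-binding protein of radial glia, went from a TPM of 2497 to 708, and Ptprz1, Slc1a2 and Slc1a3 were 5.76-fold, 5.42-fold and 3.42-fold lower, whereas Gfap was 1.79-fold lower (1.73 to 1.85).

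The list of genes of neural crest and Schwann cells, cell types that require Sox10, had a positive median of 0.47 over 13 genes, and 10 of these were higher. Whether the listed genes depend on Sox10 was not tested. Only 3 of its genes reached a TPM of 10, and over these the median was -0.22. Ednrb, an endothelin receptor that radial glia also express, was 3.94-fold lower, from a TPM of 190 to 48.2, whereas Pmp22 went from 39.4 to 52.6 and S100b from 10.2 to 8.64. Among melanocyte genes, 4 of the 5 that reached a TPM of 1 were higher, with a median of 0.29, while Kit, which other cells express too, was at 25.3 and 17.7. Mlana had 0 reads in the E14 library, which allows up to 3, and 87 in the other, and Mlph had 40 and 334. Tyr was at 0 reads in the E14-Sox2TA/WT library and Dct in the E14 library. Sox10 was therefore lower in a library in which most oligodendrocyte genes were lower and crest genes were mostly higher at low levels. The part of these cell types in the SoxE values was not tested.

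Cartilage genes went apart from Sox9, Sox5 and Sox6, the trio that activates them. The median of the 13 cartilage matrix genes was -0.05, near that of all genes, with 5 genes higher, 8 lower and 0 of the 5 that reached a TPM of 10 past 2-fold in either direction. With FPKM the median was 0.12, so its sign depended on the scaling. Col2a1, the main collagen of cartilage and a direct target of Sox9, had 7165 and 10303 reads, or a TPM of 58.0 and 74.8, and was 1.29-fold higher (1.25 to 1.33). Col9a3 was at 19.9 and 12.4 and Col11a1 at 18.1 and 12.5, both short of 2-fold. Matn1, Snorc and Epyc were at 0 reads in the E14 library, and Epyc had 116 in the other. Acan had 47 and 207 reads, Matn3 28 and 135 and Comp 11 and 49, all at a TPM of at most 1.67. Their TPM ratios were 3.99, 4.36 and 4.66. With 1 added to each TPM these shrank to log2 ratios of 0.68, 0.95 and 0.59, so the median hides differences in scarce genes. Comp did not reach a TPM of 1 and is not among the 13. In contrast, all 10 of the hypertrophic cartilage and bone genes were higher, with a median of 2.03, and all 4 that reached a TPM of 10 passed 2-fold. Col10a1, Runx2, Sp7, Ibsp, Bglap and Mmp13 reached a TPM of 1 only in the E14-Sox2TA/WT library. Such genes could enter only as higher, though no gene of the list was left out. Ibsp reached a TPM of 10 only in that library, whereas Spp1, Alpl and Pth1r did so in both. Spp1, osteopontin, which macrophages also make, was 9.25-fold higher (8.73 to 9.81), from a TPM of 36.7 to 340. Ibsp, a bone matrix protein, was 18.5-fold higher, and Alpl, the phosphatase of mineralizing cells, and Pth1r, a receptor of growth plate and bone cells, were 2.64-fold and 2.43-fold higher. Bglap, osteocalcin, was at 0 reads in the E14 library. Per unit of Sox9 in the bulk tissue, Col2a1 was thus more abundant in the E14-Sox2TA/WT library. Sox9, Sox5 and Sox6 are expressed outside cartilage too, and the part of other cells in their values was not tested. The Sertoli and granulosa cell list, added because Sox8 and Sox9 act in testis, was low in both libraries, with summed TPM of 3.67 and 24.1. Dmrt1, also a gene of germ cells, had 32 and 1098 reads and a TPM of 0.585 and 18.2, most of the sum in the E14-Sox2TA/WT library only. Fgf9 was at a TPM of 1.60 and 2.36 and Wt1 at 0.137 and 1.42.

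**Figure D2:**
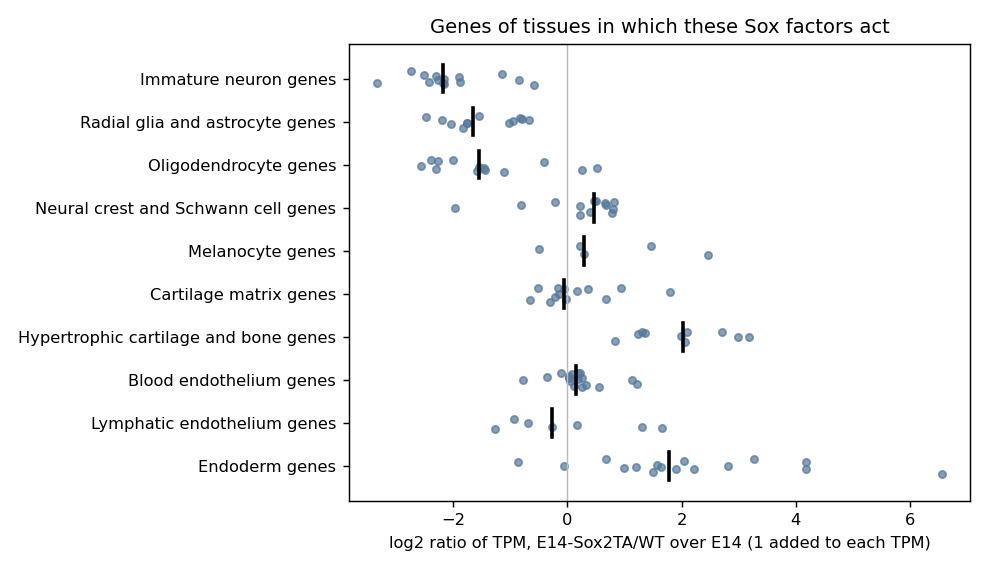
log2 ratio of TPM (E14-Sox2TA/WT over E14, with 1 added to each TPM) of each gene that reached a TPM of 1, by list, with the list median as a black bar and 1 library per group. All neuron and astrocyte genes lie below 0 (medians -2.17 and -1.65) and all hypertrophic cartilage and bone genes above it (2.03), whereas oligodendrocyte (-1.54), cartilage matrix (-0.05) and endoderm genes (1.77) include genes on both sides.

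SoxF genes were the scarcest of the 10 in the E14 library and had higher TPM in the E14-Sox2TA/WT library. Sox17, required for definitive endoderm and for arterial and hemogenic endothelium, had 199 reads in E14 and 800 in E14-Sox2TA/WT teratoma, or a TPM of 2.15 and 8.16. It was 3.80-fold higher (3.25 to 4.47). Sox7, expressed in primitive and parietal endoderm and in early endothelium, had 166 and 578 reads, or a TPM of 2.11 and 6.58, and was 3.12-fold higher (2.62 to 3.73). Sox18, a gene of developing blood vessels and of lymphatic specification, had 357 and 458 reads, or a TPM of 9.15 and 10.5. Its TPM ratio of 1.15 had an interval (0.998 to 1.32) that included no change. The ratio was higher, 1.32, with FPKM and with reads scaled by library total, so whether its interval includes no change depended on the scaling. The ratio of Sox7 to Sox17 was 0.984 and 0.806, and the interval of its change, 0.650 to 1.03, included no change. Against Sox18, the TPM of Sox17 was 3.31-fold higher (2.69 to 4.08) and that of Sox7 2.71-fold higher (2.18 to 3.39), whatever the scaling between libraries. Sox18 was 4.33 times Sox7 and 4.27 times Sox17 in the E14 library and 1.29 times Sox17 in the E14-Sox2TA/WT library.

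Among the tissues that SoxF factors serve, endoderm genes showed the larger differences. Of 16 endoderm genes, 14 were higher, and 8 of the 11 that reached a TPM of 10 were past 2-fold higher and 0 lower, with a median log2 ratio of 1.77 and summed TPM of 278 and 758. Afp and Ttr, secreted by visceral endoderm and liver, had 31 and 39 reads in the E14 library and 8490 and 1349 in the other. They reached a TPM of 10 only in the E14-Sox2TA/WT library, whereas Dab2 and Cldn6 did so in both. Dab2, an endocytic adaptor of visceral and parietal endoderm, was 7.47-fold higher (7.07 to 7.89), and Cldn6, a tight junction gene of early epithelia, was 2.34-fold higher. Not all of the list went this way. Foxa2 was 1.62-fold higher, Foxa1 was at a TPM of 43.9 and 42.0, and Cxcr4 was 1.83-fold lower (1.74 to 1.92). The 18 blood endothelium genes, by contrast, had a median of 0.16 and summed TPM of 202 and 247. Of the 7 that reached a TPM of 10, 1 was past 2-fold higher, Egfl7, a factor secreted by endothelial cells, at 19.3 and 43.6. Pecam1 was at 27.6 and 31.6, Eng at 12.5 and 18.8 and Efnb2, an arterial ligand, at 24.8 and 30.0. Lymphatic genes had a median of -0.27 over 7 genes, of which 3 were higher and 4 lower. Higher were Lyve1, a hyaluronan receptor of lymphatic vessels and some macrophages, with 35 and 276 reads, Flt4, the VEGF-C receptor, with 226 and 303, and Ccl21a, a chemokine, with 0 and 35, all at a TPM under 10. Prox1, which Sox18 activates in lymphatic precursors but which neural progenitors express as well, was 2.74-fold lower, Nr2f2 was at 45.5 and 23.2 and Pdpn at 57.0 and 47.1. Sox17 and Sox7 were thus higher in the library in which most endoderm genes were higher, while Sox18 and most blood endothelium genes stayed within 2-fold. The part of cell numbers in these values was not tested.

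The makeup of the Sox transcripts differed accordingly. Summed TPM of the 10 genes was 412 in E14 and 191 in E14-Sox2TA/WT teratoma, a 2.16-fold difference. Shares of this sum do not depend on scaling between libraries. SoxC held 66.0% (65.5% to 66.5%) in E14 teratoma and 67.5% (66.8% to 68.1%) in the other. SoxE went from 23.6% (23.1% to 24.0%) to 16.1% (15.6% to 16.6%) and SoxD from 7.19% (7.002% to 7.38%) to 3.25% (3.08% to 3.41%). SoxF went from 3.25% (3.01% to 3.501%) to 13.2% (12.6% to 13.8%). Among these 10 genes, SoxE and SoxD thus took less and SoxF took more of the sum. With Sox12 and Sox13 added, a choice made once the values were known, the SoxD share was instead higher in E14-Sox2TA/WT teratoma, 12.2% against 10.8%, and the SoxC share was lower, 64.1% against 67.0%. The directions for SoxE, 19.5% and 13.0%, and for SoxF, 2.69% and 10.7%, were as before. Summed TPM of SoxF was 13.4 and 25.3, and that of SoxE 97.1 and 30.7. Sox9 had 20.5 times the TPM of Sox17 in the E14 library and 2.07 times in the E14-Sox2TA/WT library.

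**Figure D3:**
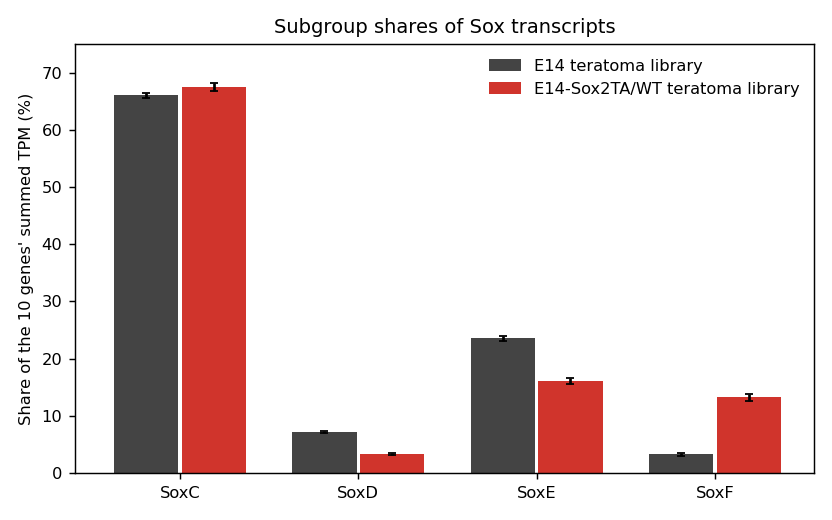
Share of the summed TPM of the 10 Sox genes held by each subgroup in each library (bars from 0, percent), with 95% counting intervals by the delta method and 1 library per group. Among these 10 genes SoxC is at 66.0% and 67.5%, SoxD and SoxE are smaller and SoxF is larger in the E14-Sox2TA/WT library, and with Sox12 and Sox13 added the directions of SoxC and SoxD turn.

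The order of the genes by TPM also differed. Sox4, Sox11 and Sox9 held ranks 1 to 3 in both libraries, with intervals that did not overlap. In the E14 library Sox8, Sox10 and Sox5 followed, then Sox6 and Sox18, and Sox17 and Sox7 came last with overlapping intervals. In the E14-Sox2TA/WT library Sox18 and Sox17 held ranks 4 and 5, Sox8, Sox10 and Sox7 followed with overlapping intervals, and Sox5 and Sox6 came last at a TPM of 3.20 and 3.01, also with overlapping intervals. Sox5 and Sox6 were above Sox18 and Sox17 in the E14 library only. Among the 18558 genes, the level of Sox4 exceeded 94.8% in E14 and 90.5% in E14-Sox2TA/WT teratoma, whereas Sox5 went from 57.2% to 23.3% and Sox17 from 20.5% to 41.2%.

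Against all genes, the 10 Sox genes spread widely. For the 11578 genes above the TPM limit, the median was -0.18 on the log2 scale, and it was 0.01 with FPKM, because TPM and FPKM scale the libraries differently. Relative to this median, SoxC, SoxD and SoxE genes lay between -2.06 (Sox5) and -0.68 (Sox4), and Sox18, Sox7 and Sox17 lay at 0.36, 1.47 and 1.72. Of the 11578 genes, 2.93% had a lower log2 ratio than Sox5 and 4.21% a lower one than Sox8. For Sox6, Sox10, Sox11 and Sox9 these shares were 7.94%, 8.19%, 9.86% and 10.8%, and for Sox4 21.1%. Sox17 exceeded 94.6% of the genes, Sox7 93.0% and Sox18 67.8%. By subgroup, median log2 ratios were -1.13 for SoxC, -1.90 for SoxD, -1.53 for SoxE and 1.29 for SoxF, and the ranges of SoxD and SoxE overlapped, from -2.24 to -1.55 and from -2.02 to -1.33.

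**Figure D4:**
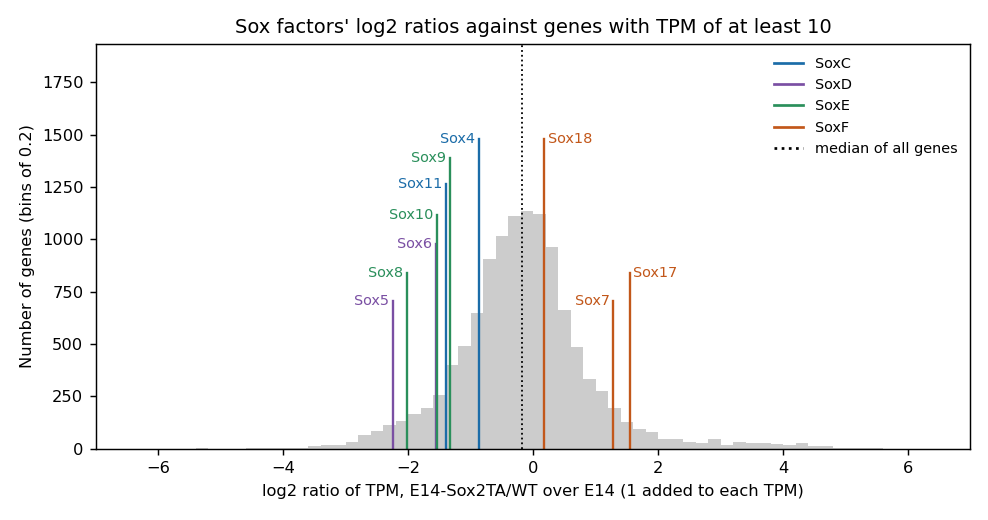
Distribution of the log2 ratio of TPM (E14-Sox2TA/WT over E14, 1 added to each TPM) over the 11578 genes above the TPM limit of 10, in bins of 0.2, with the 10 Sox genes as vertical lines (heights have no meaning) and 1 library per group. Sox7 and Sox17 are drawn although their TPM stayed under 10, and all SoxC, SoxD and SoxE lines lie left of the median at -0.18.

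The 10 genes lie on 10 different chromosomes, so no pair of them shares a locus. Genes within 5 Mb of each were summarised, since the libraries also differed by chromosome. Sox4, on chromosome 13, had a negative log2 ratio in a region with a median of 0.65 over 46 genes, of which 44 were above it. Sox10 also went against its chromosome, 15, whose 741 genes had a median of 0.35, and against the 228 genes within 5 Mb, with a median of 0.22. All 62 expressed genes (TPM of 1 or more) near Sox5 had a higher log2 ratio than Sox5. Sox17 was above 17 of its 18 neighbors and Sox7 above 75 of 83. Other transcripts that overlap these genes in the expression table, counted for Sox4, Sox5 and Sox6, held at most 15 reads each.

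Other cell types also differed between the libraries. All 10 macrophage genes were higher, 3 past 2-fold, with summed TPM of 882 and 1554. Lyz2, Cd14 and Mrc1 were 2.07-fold, 2.98-fold and 2.46-fold higher, and C1qa was at a TPM of 150.2 and 215. Erythroid genes had a median log2 ratio of 0.01 and summed TPM of 392 in both libraries. In skeletal muscle genes 8 were lower and 1 higher, with a median of -0.89, and the developmental myosins Myh8 (perinatal) and Myh3 (embryonic) were 10.3-fold and 4.62-fold lower. Among squamous epithelium genes 7 were higher and 2 lower (Trp63 and Krt1, both within counting error of no difference), with a median of 1.04 and with Krt14, Krt5 and Perp 7.28-fold, 5.06-fold and 2.09-fold higher and Krt15 at 151 and 178. Sox9 and other SoxE factors are also expressed in epithelia of hair follicles, and the part of these cells in the Sox values was not tested.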

How the data were processed

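Total RNA from 1 E14 and 1 E14-Sox2TA/WT teratoma library was read on a NovaSeq system. The authors deposited 3 values per gene, its read count, FPKM and TPM. Read counts are whole numbers without normalization, the authors' FPKM corrects them for library depth and transcript length, and the authors' TPM has the same sum in each library. The submitters' processing notes name bcl2fastq 2.20.0, Trimmomatic, HISAT2 2.1.0, StringTie 2.1.3b and the builds mm10 and hg19, without their roles, and the genes are those of mm10. In the labels, the extraction protocol mentions an ESC line, whereas tissue and title are teratoma. Counting by strand is not stated, and genes that overlap on both strands are uncertain.

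Ratios of TPM were taken with intervals from the exact Clopper-Pearson interval of the 2 read counts (95%), and log2 ratios with 1 added to each TPM. Intervals cover counting error only, and a count of 0 allows up to 3 reads. With 1 library per group, p-values were not computed. Positions came from a RefSeq table of GRCm38, which matched 45675 of 45777 genes. HMG box sequences came from the longest GENCODE M21 transcript of each gene that holds the box. A further sequence is not reported here. The table of RefSeq promoters held 5 of the 10 genes and was not used. The 10 genes and the gene lists were chosen with earlier results of these data known. Genes named were all 10, Sox12 and Sox13, and per list the 3 highest by TPM and the 2 with the largest log2 ratio at a TPM of at least 10. Genes named for a count of 0 reads, Acan, Matn3, Comp, Col10a1, Runx2, Sp7, Mmp13, Myrf, Pdgfra, Tyrp1, Oca2, Slc45a2, Cxcr4, Foxa1, Foxa2, Lyve1, Flt4, Trp63, Krt1, the Y-linked genes and neighboring or overlapping genes were chosen after their values were seen. Alternatives covered FPKM, read counts under 3 scalings (library totals, TMM factors from edgeR, median-of-ratios size factors), the pseudocount, the TPM limit and the fold. The scripts were tested on simulated data. Software was R 4.3.3 with edgeR 4.0.16, and Python 3.11.15 with scipy 1.17.1, pandas 2.3.3 and numpy 2.4.6.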

Additional observations from a re-analysis of the deposited data

How the results depend on the processing

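No paired analysis was possible because each group holds a single library, which also cannot be left out. For the counts, subgroup medians and shares, 26 of 60 values under other settings lay within 1.5 times the count or within counting error, and 34 lay outside. The number of lower Sox genes, 6, was 7 at a fold above 1.5, 4 above 3 and 6 in the other settings. The number of higher Sox genes went from 0 to 2 (Sox7 and Sox17) with a TPM of at least 1 or no limit, settings that test more genes. Median log2 ratios for SoxC were -0.92 with FPKM, -0.93 with library totals, -1.06 with TMM, -1.06 with size factors and -1.07 from summed TPM. For SoxD they were -1.50 with FPKM, -1.75 with library totals, -2.17 with a pseudocount of 0.1 and -2.09 from summed TPM. For SoxE they were -1.24 with FPKM and -1.38 with library totals. For SoxF they were 1.58 with library totals, 1.60 with a pseudocount of 0.1 and 0.87 from summed TPM, where Sox18 weighs most. With reads in place of TPM, which gives long transcripts more weight, the shares of SoxC, SoxD, SoxE and SoxF were 74.3%, 10.01%, 14.4% and 1.29% in the E14 library and 76.6%, 5.87%, 10.8% and 6.74% in the other. With Sox12 and Sox13 added, a setting chosen after seeing the data that adds abundant genes, the medians of SoxC and SoxD were -1.39 and -1.55, and the shares were 67.0%, 10.8%, 19.5% and 2.69% in the E14 library and 64.1%, 12.2%, 13.0% and 10.7% in the other, so that SoxC and SoxD shares turned direction. Single Sox genes kept their direction in all 50 values, and 25 moved beyond counting error. Of 34 list medians, 30 moved by less than the spread of their genes, 1 moved further and 3 changed sign, cartilage matrix with FPKM (0.12) and, over few genes with a TPM of at least 10, neural crest (-0.22) and melanocyte genes (-0.49). The cause was not tested beyond what is stated.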

Other observations

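The nearest expressed gene of each Sox gene, taken by position alone, was read as well. Its TPM differed in the same direction as that of the Sox gene in 6 of 10 cases and in the opposite direction in 4. Over all 18558 genes that reached a TPM of 1, 52.5% were lower in the E14-Sox2TA/WT library, so these counts set the neighbors apart from other genes in no clear way. Next to Sox8, 125 bp away in RefSeq and overlapping its start in GENCODE, the noncoding transcript 2810468N07Rik went from a TPM of 18.6 in the E14 library to 5.92 in the E14-Sox2TA/WT library, and Sox8 from 31.4 to 6.99. The noncoding transcript 2610035D17Rik, 256149 bp from Sox9, was at 12.2 and 5.10, and Sox9 at 44.1 and 16.9. Rp1, 81662 bp from Sox17, was at 1.83 and 7.03, and Sox17 at 2.15 and 8.16. Cmpk2 (near Sox11) was at 7.57 and 5.52, 1110004F10Rik (near Sox6) at 237 and 184 and Gm10863 (near Sox10) at 1.496 and 1.10, all lower like the Sox gene. In the other direction, Gm46721, near Sox5, was at 0.140 and 1.59, and A330102I10Rik, near Sox4, was nearly equal at 2.06 and 2.09. Pinx1, 23844 bp from Sox7, was at 55.7 and 29.1 while Sox7 was at 2.11 and 6.58. Tcea2, 8657 bp from Sox18, was at 19.5 and 8.10 while Sox18 was at 9.15 and 10.5. Reads shared between neighbors were not tested.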
